A study of Mus musculus with 10 samples.

Results

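The Frizzled genes *Fzd1* to *Fzd10* encode the cell surface receptors for WNT ligands, and their transcripts were measured in the anterior fontanelle (AF) of mouse embryos at E18.5. The members were taken by gene symbol, and all 10 were among the 23080 genes of the count table and among the 16267 genes that passed the expression filter. The AF is the gap of fibrous tissue between the frontal and parietal bones of the fetal skull, and the dissected piece combined the bone edges with the fibrous tissue of the suture, after overlying skin and underlying brain had been removed. The study asked how loss of the FGF receptor gene *Fgfr2* from neural crest cells alters gene expression in this tissue, by bulk RNA-seq of 5 control libraries, whose genotype is given as WT, and 5 libraries from embryos of the genotype Wnt1-Cre; Fgfr2fl/fl. The 10 libraries came from 5 pairs of littermates, but which control belongs to which mutant is not given, nor are the alleles the control embryos carried. The Wnt1-Cre transgene is active in the neural crest, so cells of the excised piece with another origin keep intact alleles of *Fgfr2*. The sources used here do not say whether a library came from a single embryo or from pooled tissue, so the p-values below measure the spread between these libraries. Bulk RNA-seq sums all cells of the tissue, so that fewer cells of a type and less RNA per cell cannot be told apart.

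Frizzled proteins cross the membrane several times and bind WNT ligands through an extracellular cysteine-rich domain (CRD). With the co-receptors LRP5 or LRP6 they pass the signal to Dishevelled proteins, and the signal stabilizes β-catenin, which activates target genes together with TCF and LEF factors. Other Frizzled signals run without β-catenin, among them the planar cell polarity pathway, in which FZD3 and FZD6 act. By sequence FZD1, FZD2 and FZD7 form a subfamily, as do FZD5 and FZD8, FZD3 and FZD6, and FZD4, FZD9 and FZD10. WNT signaling in the skull is known for its part in osteoblast differentiation and in the maintenance of suture stem cells.

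The genes are given on GRCm38 with the positions of GENCODE M21. The *Fzd1*, *Fzd2* and *Fzd7* genes lie at chr5:4753839-4758035 on the minus strand, chr11:102604396-102608058 on the plus strand and chr1:59482424-59486955 on the plus strand. *Fzd5* and *Fzd8* lie at chr1:64730558-64737751 (minus) and chr18:9212163-9218136 (plus). *Fzd3* and *Fzd6* lie at chr14:65192449-65262463 (minus) and chr15:39006034-39038188 (plus). *Fzd4*, *Fzd9* and *Fzd10* lie at chr7:89404355-89413134 (plus), chr5:135248938-135251230 (minus) and chr5:128600844-128604093 (plus). *Fzd1*, *Fzd2*, *Fzd7*, *Fzd8*, *Fzd9* and *Fzd10* are annotated with a lone exon, *Fzd4* and *Fzd5* with up to 2 exons, and *Fzd3* and *Fzd6* with up to 7.

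Because the members are paralogs and the reads were 50 bases long, the stretches of coding sequence that members share decide whether a read can be given to the right gene. The longest identical stretches of the 45 pairs of members all joined *Fzd1*, *Fzd2* and *Fzd7*, the members with the highest levels per length, and they are printed here 5′ to 3′ on the coding strand with no base marked in capitals.

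Fzd1 and Fzd2: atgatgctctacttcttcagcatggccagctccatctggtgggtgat

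Fzd1 and Fzd7: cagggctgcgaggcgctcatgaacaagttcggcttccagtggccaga

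Fzd2 and Fzd7: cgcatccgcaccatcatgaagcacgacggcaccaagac

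The stretch of 47 bases shared by *Fzd1* and *Fzd2* lies in the coding exon at chr5:4756331-4756377 in *Fzd1* and at chr11:102605740-102605786 in *Fzd2*. *Fzd1* and *Fzd7* share another 47 bases, at chr5:4756964-4757010 and chr1:59483344-59483390, and *Fzd2* and *Fzd7* share 38 bases, at chr11:102606064-102606101 and chr1:59484298-59484335. Among the other 42 pairs the longest identical stretch was 29 bases, in *Fzd5* and *Fzd8*. A run of 50 bases in *Fzd1*, *Fzd2*, *Fzd7*, *Fzd8*, *Fzd9* or *Fzd10* matched no other annotated transcript exactly, 0 of 4148 such runs in *Fzd1* and 0 of 3614 in *Fzd2*. The deposited counts of *Fzd1*, *Fzd2* and *Fzd7* were not all whole within 0.011, and neither were those of *Fzd3* in 6 libraries. In 6 of 10 libraries at least 1 of the genes *Fzd1*, *Fzd2* and *Fzd7* had a fractional count, and in all 6 the 3 counts summed to a whole number within 0.011. In mutant-labelled replicate 3, for example, the deposited counts were 2602.46 for *Fzd1*, 2385.75 for *Fzd2* and 1924.79 for *Fzd7*. *Fzd5* shares 16.4% of its runs of 50 bases with *Gm38058* on the opposite strand and *Fzd6* shares 2.12% with *Gm26704*. The libraries were stranded, but no source used here says whether reads were counted by strand, so those parts of both genes remain uncertain.

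Before the receptors, the labels and the tissue were checked. *Fgfr2*, the targeted gene, was at 200.2, 235, 176, 195 and 192 TMM-normalized CPM (counts scaled to a library total corrected by edgeR's TMM factors) in control-labelled replicates 1 to 5 and at 299, 273, 325, 338 and 357 CPM in mutant-labelled replicates 1 to 5. All mutant-labelled libraries were thus above all control-labelled libraries (log2 fold change 0.67 ± 0.090 SE, adjusted p = 0.0487 by edgeR's quasi-likelihood test), and the summed *Fgfr2* counts ran opposite to the genotype labels. These counts cover the whole gene, so any transcripts made from a recombined allele are included in them. The adjusted p stayed under 0.05 without control-labelled replicate 2 or mutant-labelled replicate 2, and not when any of the other 8 libraries was left out. By edgeR's test it was also above 0.05 with scaling by library size alone (0.152), and under further settings listed in the last section. Groups are named by label throughout. Library totals were 20774667 to 28515434 counts, of which a ribosomal RNA gene took 18.6% to 33.5%, and the Frizzled genes together took 9266 to 13315 counts per library. All 10 osteoblast markers, all 4 markers of AF connective tissue and all 7 endothelial markers were measured, while the epidermal markers summed to 8.51 to 13.6 CPM, with *Krt14* and *Trp63* below the filter. Skeletal muscle markers varied widely between libraries of a label and were highest in control-labelled replicate 2 and mutant-labelled replicate 1, at sums from 9.49 to 330.1 CPM by control label and from 9.50 to 303 CPM by mutant label. Fitted values of all 10 osteoblast markers were lower by label, 7 of them at an unadjusted p under 0.05, which 3.82% of all genes reached in that direction. The 4 AF connective tissue markers were all higher, each at an unadjusted p under 0.05 by edgeR's test, which 3.68% of all genes reached in that direction. They summed to 199 to 278 CPM by mutant label and to 148 to 179 CPM by control label. The summed neuronal markers were at 342 CPM in mutant-labelled replicate 2 and at 42.4 to 184.8 CPM elsewhere. The part of these differences in the Frizzled values was not tested, other than by a fit with an osteoblast score as a covariate. That score averages the log2 CPM of the 10 osteoblast markers, all of them lower by label, so the fit cannot fully separate score and label.

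Transcripts of 3 receptors made up most of the Frizzled expression of the AF. To compare genes, CPM was divided by exon length in kilobases (kb). Mean levels over the 10 libraries were 24.2 ± 3.01 CPM per kb for *Fzd2*, 22.9 ± 2.28 for *Fzd1* and 15.4 ± 2.29 for *Fzd7* (SD, n = 10). These levels stood at the 93.5, 93.0 and 89.1 percentiles of the 15991 tested genes with a length, and *Fzd1*, *Fzd2* and *Fzd7* together held 66.4% of the summed Frizzled level per kb of exon, between 64.8% and 68.0% in each library. Their lead was smaller per kb of coding sequence, at means of 51.9 for *Fzd2*, 49.8 for *Fzd1* and 40.7 for *Fzd7* against 33.7 for *Fzd5*. The next levels per kb of exon were 8.56 ± 0.825 for *Fzd5*, 6.15 ± 0.792 for *Fzd4*, 5.93 ± 0.993 for *Fzd8* and 5.61 ± 1.01 for *Fzd9*. The planar polarity receptors *Fzd6* and *Fzd3* followed at 3.10 ± 0.288 and 1.62 ± 0.245, and *Fzd10* was the lowest, at 0.506 ± 0.080, or 25 to 53 counts per library.

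**Figure D1:**
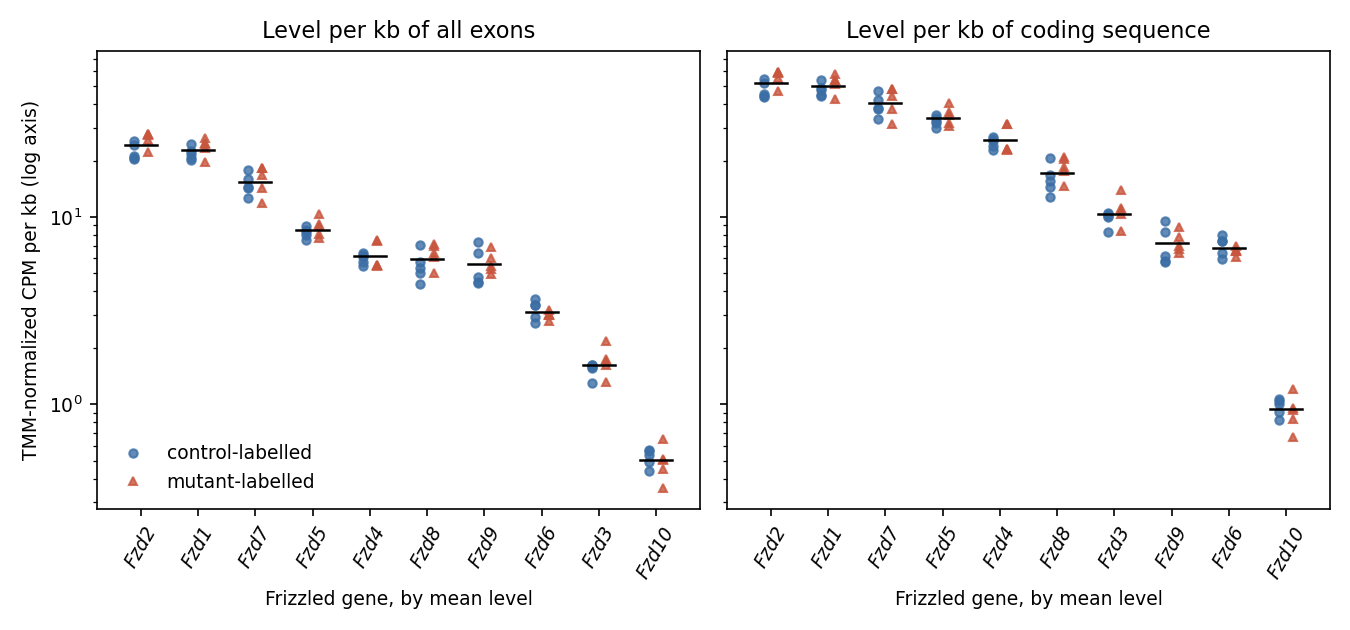
Level of each Frizzled gene in each library, in TMM-normalized CPM per kb on a log axis, over all exons (left) and over coding sequence (right), with genes ordered by their mean (black bar). *Fzd2*, *Fzd1* and *Fzd7* lead on both scales and *Fzd10* is last, while *Fzd3* moves from rank 9 to rank 7 when coding length replaces exon length.

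Neighbours in the order per kb of exon were compared within libraries by a two-sided exact sign-flip test over the 10 libraries, adjusted over the 9 neighbouring pairs. *Fzd2* exceeded *Fzd1* in 7 of 10 libraries by a mean of 0.08 on the log2 scale, which did not pass (adjusted p = 0.0502). *Fzd4* and *Fzd8* (adjusted p = 0.400) and *Fzd8* and *Fzd9* (adjusted p = 0.321) did not differ beyond their spread either. The other 6 pairs were ordered alike in 10 of 10 libraries with ranges that did not overlap (adjusted p = 0.00293 by the exact test, from the smallest p of 0.00195 that 10 libraries allow). The order depended on the length used, since *Fzd3* has 12804 bases of exon and 1998 bases of coding sequence. Per kb of coding sequence *Fzd3* passed *Fzd9* and *Fzd6*, and 7 of 10 members kept their rank. On that scale *Fzd4* exceeded *Fzd8* in 10 of 10 libraries, by 0.58 on the log2 scale and without overlap (adjusted p = 0.00251 by the exact test), while *Fzd9* and *Fzd6* did not differ beyond their spread (6 of 10 libraries, adjusted p = 0.486). *Fzd2* and *Fzd1* again did not pass (adjusted p = 0.127). In all, 7 of the 9 neighbouring pairs passed, 5 of them with ranges that overlapped, among them *Fzd1* and *Fzd7*, *Fzd7* and *Fzd5*, and *Fzd5* and *Fzd4*. Per kb of exon the same order held in the control-labelled libraries, and in the mutant-labelled libraries *Fzd8* and *Fzd4* exchanged ranks 5 and 6 per kb of exon.

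For the comparison of the groups each gene is set against itself, in TMM-normalized CPM. No Frizzled gene differed at an adjusted p under 0.05, a threshold that 0.0184% of all genes tested passed, and the smallest adjusted p of the family was 0.62. At an unadjusted p under 0.05 there was 1 member of 10, *Fzd2*, against 7.49% of all genes. Of the 10 members, 8 had a fitted log2 fold change above 0, against 50.3% of all genes, with a median of 0.09 against 0.00 over all genes. No member had groups that did not overlap, which 1.48% of all genes had. The fitted differences were small, between −0.09 for *Fzd6* and 0.23 for *Fzd2*.

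**Figure D2:**
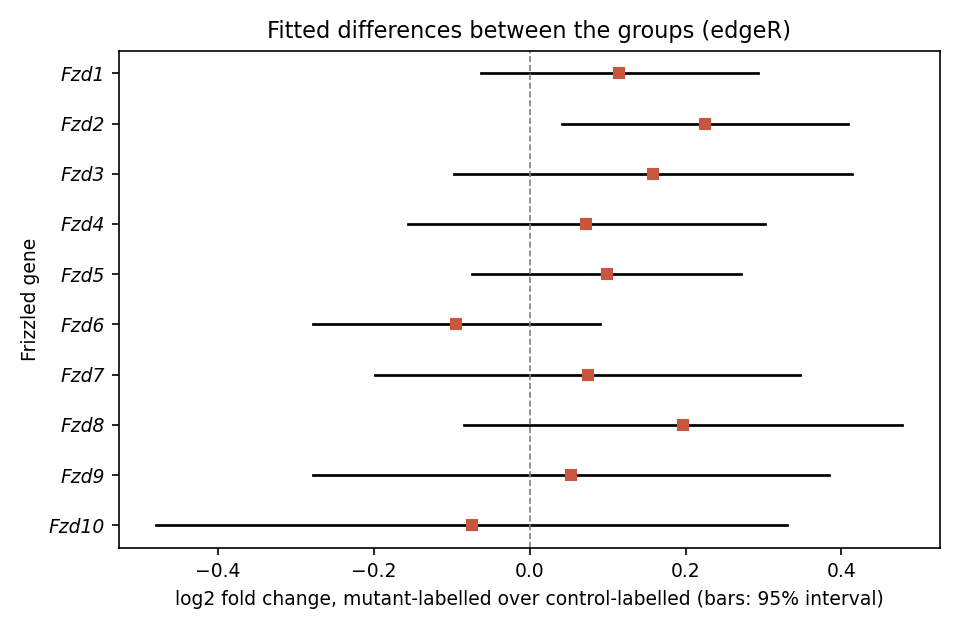
Fitted log2 fold change of each Frizzled gene, mutant-labelled over control-labelled (square), with its 95% interval (bar) from edgeR's quasi-likelihood fit over 5 and 5 libraries. The interval of *Fzd2*, 0.04 to 0.41, lies above 0 before adjustment, and the intervals of the other 9 genes include 0.

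*Fzd2*, a receptor for WNT5A and for β-catenin signals, was at 88.8, 93.2, 75.2, 77.0 and 74.9 CPM in control-labelled replicates 1 to 5. In mutant-labelled replicates 1 to 5 it was at 99.7, 80.9, 102, 93.9 and 102 CPM. Of the mutant-labelled libraries 4 were above the highest control-labelled library, and replicate 2 lay within the control range. The means were 81.8 ± 8.55 and 95.7 ± 8.95 CPM (SD, n = 5 each), a ratio of 1.17 with a 95% interval of 1.03 to 1.33. The log2 fold change of 0.23 (standard error 0.084) had an unadjusted p of 0.0204 and an adjusted p of 0.62 by edgeR's test, and the exact permutation test over all groupings of the libraries gave p = 0.0556. Scaling by library size alone gave 0.18 (unadjusted p = 0.0637).

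*Fzd1*, the closest relative of *Fzd2* and *Fzd7*, was at 103, 94.4, 86.7, 91.5 and 84.8 CPM in the control-labelled libraries and at 104, 82.4, 111, 103 and 98.3 CPM in the mutant-labelled libraries, in the order of replicates. The groups overlapped widely, with mutant-labelled replicate 2 the lowest library of all and replicate 3 the highest. The log2 fold change was 0.12, with a 95% interval of −0.06 to 0.29 (adjusted p = 0.776). *Fzd7*, which acts in progenitor cells of many tissues, was at 72.5, 80.8, 57.2, 64.8 and 65.2 CPM by control label and at 82.3, 53.7, 82.4, 64.6 and 75.8 CPM by mutant label. Mutant-labelled replicate 2 was again the lowest of the 10, and replicates 1 and 3 were above every control-labelled library. The log2 fold change was 0.07 (95% interval −0.20 to 0.35, adjusted p = 0.926), so a rise to 1.27 times the control level remains within the interval. Leaving out mutant-labelled replicate 2 gave 0.17, and leaving out control-labelled replicate 3 gave 0.03.

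The CPM ratio of *Fzd2* to *Fzd1* was 0.888 ± 0.057 in the control-labelled libraries and 0.961 ± 0.052 in the mutant-labelled libraries (SD, n = 5 each), with a coefficient of variation of 6.98% over the 10 libraries. That was below the coefficient of variation of either gene alone, 12.4% for *Fzd2* and 9.98% for *Fzd1*. *Fzd2* took 18.7% to 20.4% of the summed Frizzled CPM by control label and 20.01% to 21.8% by mutant label.

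**Figure D3:**
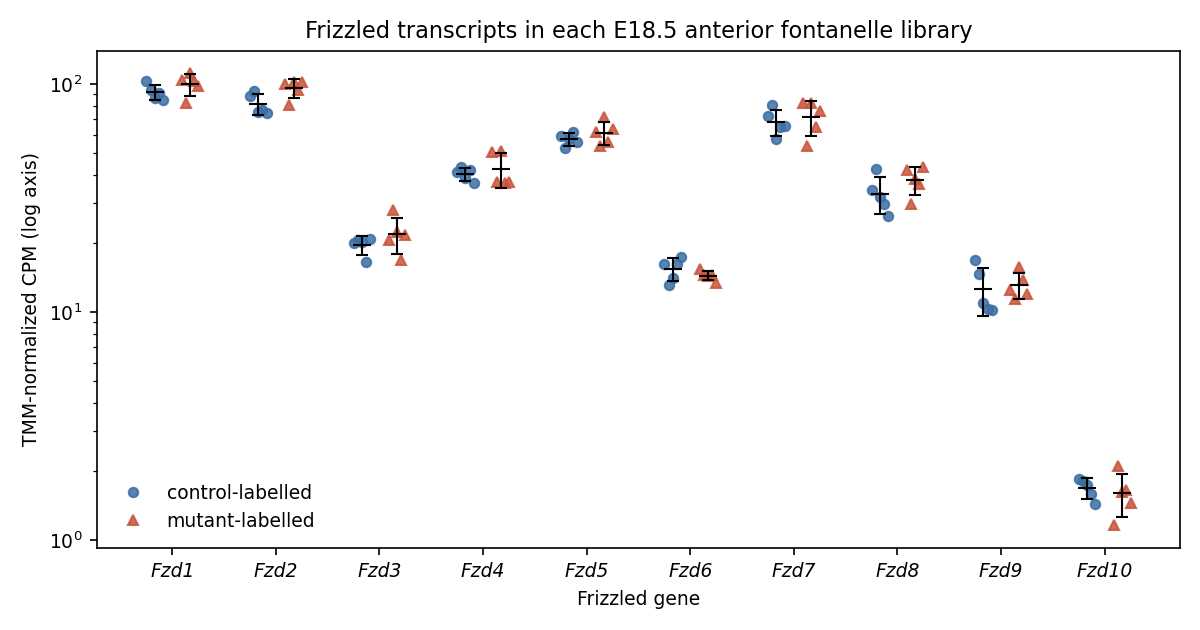
TMM-normalized CPM of the 10 Frizzled genes in each library on a log axis, circles for the 5 control-labelled and triangles for the 5 mutant-labelled libraries, with the mean and SD of each group in black. The groups overlap for all 10 genes, and the lowest mutant-labelled library for *Fzd1* and *Fzd7* is replicate 2, at 82.4 and 53.7 CPM.

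*Fzd8*, which shares the subfamily of *Fzd5*, had the next largest fitted difference. It was at 34.3, 42.5, 32.0, 29.8 and 26.2 CPM in control-labelled replicates 1 to 5 and at 41.9, 29.9, 38.1, 36.3 and 43.1 CPM in mutant-labelled replicates 1 to 5. Only mutant-labelled replicate 5 was above the highest control-labelled library, replicate 2. The log2 fold change was 0.20 (95% interval −0.08 to 0.48, adjusted p = 0.748, exact permutation p = 0.190), with 0.31 without control-labelled replicate 2 and 0.13 without control-labelled replicate 5. *Fzd5* was at 52.2 to 61.7 CPM by control label and at 53.6 to 71.6 CPM by mutant label, with medians of 57.4 and 61.8 CPM. Its log2 fold change was 0.10 (95% interval −0.07 to 0.27, adjusted p = 0.807), with 0.04 without mutant-labelled replicate 3 and 0.15 without mutant-labelled replicate 2. With an osteoblast score as a covariate, the value for *Fzd5* was 0.35, at an unadjusted p of 0.00301 and an adjusted p of 0.994.

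*Fzd3* and *Fzd6*, the planar polarity receptors, went opposite ways in their fitted values. *Fzd3* was at 20.02, 20.8, 20.2, 16.5 and 20.8 CPM in the control-labelled libraries and at 20.8, 27.9, 22.3, 16.9 and 21.9 CPM in the mutant-labelled libraries. Mutant-labelled replicate 2, at 27.9 CPM, stood above the other 9 libraries. It also had the highest neuronal marker sum, 342 CPM. Mutant-labelled replicates 1 and 4 had the next highest sums, 184.8 and 145.6 CPM, with *Fzd3* at 20.8 and 16.9 CPM. Whether nerve content bears on *Fzd3*, which is known for its role in axon guidance, was not tested. With mutant-labelled replicate 2 *Fzd3* had a log2 fold change of 0.16 (95% interval −0.10 to 0.41, adjusted p = 0.790 by edgeR's test), and without that library 0.06. Without mutant-labelled replicate 4, the lowest of that group, the value was 0.25. With an osteoblast score as a covariate the value was −0.02. *Fzd6* was at 16.3, 13.1, 14.0, 16.2 and 17.5 CPM by control label and at 15.4, 14.6, 14.4, 14.5 and 13.4 CPM by mutant label. The mutant-labelled values all lay within the control range, and the log2 fold change was −0.09 (95% interval −0.28 to 0.09, adjusted p = 0.834), or −0.04 without control-labelled replicate 5 and −0.14 without control-labelled replicate 2.

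*Fzd4*, the receptor for norrin in blood vessels, was at 36.7 to 43.1 CPM by control label (median 41.2) and at 36.8 to 50.6 CPM by mutant label (median 37.2). Mutant-labelled replicates 1 and 3 were at 50.2 and 50.6 CPM, above all other libraries, and the other 3 were near the lowest control. Its log2 fold change was 0.07 (95% interval −0.16 to 0.30, adjusted p = 0.910), and between 0.0089 without mutant-labelled replicate 3 and 0.13 without mutant-labelled replicate 4 when each library was left out in turn. The endothelial markers summed to 484 to 618 CPM by control label and to 510 to 622 CPM by mutant label, and *Ndp*, which encodes norrin, reached at most 0.596 CPM and was below the filter. *Fzd9* was at 10.2 to 16.9 CPM by control label and at 11.4 to 15.7 CPM by mutant label, the widest relative spread of the family, with a coefficient of variation of 18.1% over the 10 libraries. Its log2 fold change was 0.05 (95% interval −0.28 to 0.38, adjusted p = 0.958), and it was −0.01 when control-labelled replicate 4 or 5 or mutant-labelled replicate 3 was left out. *Fzd10* was at 1.44 to 1.85 CPM by control label and at 1.16 to 2.11 CPM by mutant label, and its log2 fold change was −0.07 (95% interval −0.48 to 0.33, adjusted p = 0.953). At 25 to 53 counts per library, the interval of the *Fzd10* ratio, 0.717 to 1.26, was the widest of the family, and without mutant-labelled replicate 1, the lowest library, the log2 fold change was 0.03.

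The members did not all rank the libraries alike. Mutant-labelled replicate 3 was the highest library for 5 of the 10 members, and control-labelled replicate 5 was the lowest for 4. Mutant-labelled replicate 2 was the highest for *Fzd3* and *Fzd10* and the lowest for *Fzd1* and *Fzd7*. It also had the lowest summed osteoblast markers, 54054 CPM against 64897 to 78413 CPM elsewhere. That sum is mostly *Col1a1*, at 48580 to 71268 CPM over the libraries, and mutant-labelled replicate 5 had the highest sum. Without mutant-labelled replicate 2, at an unadjusted p under 0.05, edgeR's test gave 3 members, *Fzd2* (log2 fold change 0.29), *Fzd1* (0.18) and *Fzd8* (0.28), and still none at an adjusted p under 0.05, with a lowest adjusted p of 0.362. In the same fit 6.79% of all genes were at an unadjusted p under 0.05. There were 2 members, *Fzd2* and *Fzd8*, without control-labelled replicate 2 (8.34% of all genes), also 2, *Fzd2* and *Fzd3*, without mutant-labelled replicate 4 (7.90%), and 0 without mutant-labelled replicate 5 (8.20%). Summed over the family, the libraries held 393 to 457 CPM by control label and 394 to 510 CPM by mutant label, with means of 422 ± 31.5 and 460 ± 45.8 CPM (SD, n = 5 each). These ranges overlapped.

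**Figure D4:**
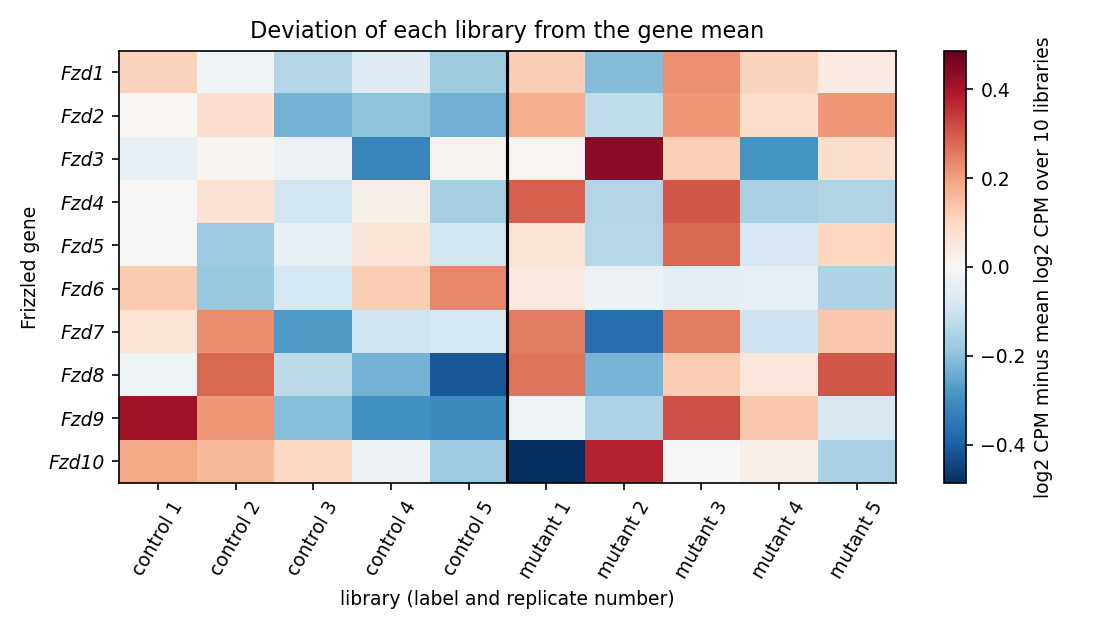
Deviation of each library from the gene's mean log2 CPM over the 10 libraries, with control-labelled libraries left and mutant-labelled libraries right of the black line. Mutant-labelled replicate 3 is above the mean for most members, and mutant-labelled replicate 2 is high for *Fzd3* and *Fzd10* and low for *Fzd1* and *Fzd7*.

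Outside the family, the genes most like a member across the 10 libraries were sought among 8755 genes with a mean of at least 10 CPM, by Pearson's r of log2 CPM. For *Fzd1* these included *Adgra2* (r = 0.954) and *Pxdn* (0.952). *Adgra2* encodes GPR124, a WNT7 co-activator that works with RECK at Frizzled receptors, and it was at 189 CPM in its lowest library and at 283 CPM in its highest, mutant-labelled replicates 2 and 3 as for *Fzd1*. For *Fzd2* the most alike genes were the imprinted zinc finger gene *Zim1* (0.953), the collagen gene *Col8a2* (0.951) and the thrombospondin gene *Thbs1* (0.948). For *Fzd8* they were *Ankrd50* (0.955), the heparan sulfate sulfotransferase gene *Hs3st3a1* (0.952) and *Dact1* (0.941), which encodes a binding partner of Dishevelled. Such r values describe 10 libraries that share 2 labels and their tissue composition, and 15 genes for *Fzd1*, 39 for *Fzd2* and 23 for *Fzd8* exceeded 0.9.

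The partners of the receptors were described by lists, none of which held a gene at an adjusted p under 0.05 by edgeR's test. DESeq2's Wald test called 6 of these genes, *Lgr6* (adjusted p = 0.00215), *Sfrp4* (0.00505), *Sfrp2* (0.00840), *Ankrd6* (0.0271), *Wnt11* (0.0313) and *Notum* (0.0392). Of all 16267 genes tested it called 98. The adjusted p-values that follow are edgeR's. Of the 9 co-receptor genes none was at an unadjusted p under 0.05, against 7.49% of all genes. The smallest p values there, by edgeR's test, were those of *Reck* (log2 fold change 0.18, adjusted p = 0.669) and *Lrp6* (0.16, adjusted p = 0.716). *Lrp5* was at 226 and 231 CPM by control and mutant label. The median of the co-receptor list was 0.04.

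Genes of Frizzled turnover on the cell surface were spread more widely. The ubiquitin ligases ZNRF3 and RNF43 remove Frizzled proteins, and R-spondins with LGR receptors block that removal. Of 12 such genes 11 were tested (*Rspo4* was below the filter), with 1 higher and 2 lower at an unadjusted p under 0.05, against 3.68% and 3.82% of all genes, and a median log2 fold change of 0.03. *Lgr6* was at 47.9, 39.1, 49.4, 56.9 and 48.7 CPM by control label and at 31.7, 32.7, 38.3, 29.5 and 37.0 CPM by mutant label, without overlap, as for 1.48% of all genes (log2 fold change −0.51, adjusted p = 0.184). With the osteoblast score as a covariate the value for *Lgr6* was −0.17. Its adjusted p by edgeR's test in that fit was 0.994, as it was for *Fgfr2*. *Lgr5*, a stem cell marker in several tissues, was at 4.10 to 9.16 CPM and 8.65 to 11.3 CPM (0.65, adjusted p = 0.411). The ligase genes were at 14.3 and 14.9 CPM (*Znrf3*) and at 1.37 and 1.16 CPM (*Rnf43*) by control and mutant label.

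Other proteins with a Frizzled-type CRD, among them the secreted Frizzled-related proteins that bind WNT in competition with the receptors, numbered 11, of which 9 were tested, with 1 higher and 2 lower at an unadjusted p under 0.05 (against 3.68% and 3.82% of all genes) and a median of −0.09. *Sfrp4*, a secreted WNT antagonist, was at 13.1 to 21.2 CPM by control label and at 7.37 to 11.8 CPM by mutant label, without overlap, as for 1.48% of all genes (log2 fold change −0.74, adjusted p = 0.208). *Sfrp2*, of the same family, was at 322 to 470 CPM and 459 to 716 CPM (0.55, adjusted p = 0.321). Of 20 ligand genes, 19 WNT genes and *Ndp*, 14 were tested, all of them WNT genes, with 1 higher and 2 lower at that threshold (against 3.68% and 3.82% of all genes) and a median of −0.14. *Wnt11*, a ligand of the planar polarity branch, was at 6.62 to 8.06 CPM by control label and at 8.15 to 13.8 CPM by mutant label (0.56, adjusted p = 0.321). *Wnt10b*, a ligand that promotes bone formation, was at 14.2 to 18.3 CPM and 11.1 to 13.5 CPM (−0.28, adjusted p = 0.508). Neither ligand overlapped between the groups, as was the case for 1.48% of all genes. *Wnt5a*, a ligand of FZD2, was at means of 32.2 and 29.2 CPM.

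**Figure D5:**
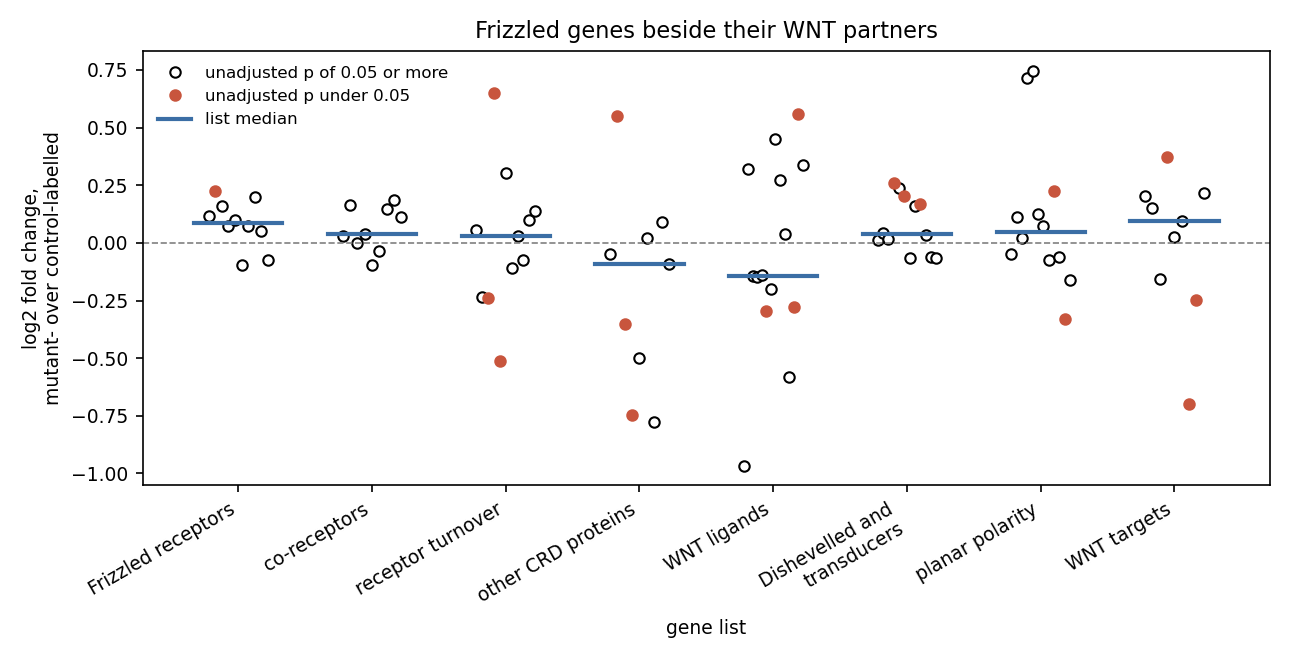
Fitted log2 fold change, mutant-labelled over control-labelled, of each tested gene in the Frizzled family and in 7 lists of WNT partners, with filled points for an unadjusted p under 0.05 and a blue bar at the median of each list. The Frizzled values lie between −0.09 and 0.23, and no gene shown passed an adjusted p of 0.05 by edgeR's test. DESeq2's test called 6 of the partners, and 98 of all 16267 genes tested.

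Below the receptors, 12 of 12 genes of Dishevelled, its binding partners of the DACT family, β-catenin and its destruction complex were tested, with 3 higher and 0 lower at an unadjusted p under 0.05 (against 3.68% and 3.82% of all genes) and a median of 0.04. The 3 were *Dact1*, *Dact3* and *Gsk3b*, which encodes a kinase of the destruction complex (log2 fold change 0.17). *Dact1* had a log2 fold change of 0.26 and *Dact3*, of the same family, 0.20 (adjusted p = 0.568 and 0.631). The Dishevelled genes *Dvl1*, *Dvl2* and *Dvl3* had values of 0.01, 0.04 and 0.02. Of the 12 planar polarity genes, all tested, 1 was higher and 1 lower at that threshold (against 3.68% and 3.82% of all genes), with a median of 0.05. *Ankrd6*, a Diversin homologue that links Dishevelled to polarity signals, was at 20.1 to 23.6 CPM by control label and at 15.5 to 19.3 CPM by mutant label, without overlap, as for 1.48% of all genes (−0.33, adjusted p = 0.251). The formin gene *Daam1* had a value of 0.23 (adjusted p = 0.659), and its highest library was mutant-labelled replicate 2, at 34.1 CPM, without which the value was 0.12. Of 10 WNT target genes 9 were tested, with 1 higher and 2 lower at that threshold (against 3.68% and 3.82% of all genes) and a median of 0.09. *Notum*, which encodes an enzyme that inactivates WNT, was at 3.47 to 5.78 CPM by control label and at 2.58 to 3.27 CPM by mutant label (−0.70, adjusted p = 0.307). *Nkd1*, a feedback inhibitor that binds Dishevelled, was at 20.1 to 28.4 CPM and 26.2 to 35.9 CPM (0.37, adjusted p = 0.445). *Axin2*, a general target of β-catenin signals, was at means of 16.9 and 19.5 CPM (0.20).

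Of the Frizzled proteins, FZD1, FZD2, FZD5, FZD7 and FZD8 are those bound by the antibody vantictumab, which blocks WNT binding. The genes for these 5 receptors all had fitted log2 fold changes above 0, with a median of 0.12, against 50.3% and 0.00 over all genes. In the whole family 8 of 10 members were above 0, with a median of 0.09. The groups overlapped for each of the 5 genes, and none of these passed an adjusted p of 0.05 by edgeR's test.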

How the data were processed

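AF tissue of 10 libraries (5 per label) was sequenced as stranded single-end reads of 50 bases. The authors deposited a table of estimated counts per gene, not scaled between libraries; 66.4% of the values were whole, and no gene summed to under 10. The submitters' processing notes name Partek and mm10; aligner, counting tool and strand setting are not given in the sources used here. Positions matched GENCODE M21 for 22296 of 22533 symbols, with an end 1 base past it in the table. There were 0 columns of other samples.

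The design had assumed whole counts, so the estimates were rounded. Low genes were removed by filterByExpr of edgeR (16267 genes left for testing), and the rest were scaled by TMM (factors 0.90 to 1.13) and compared by the quasi-likelihood test of edgeR 4.0.16 in R 4.3.3, without covariates, with Benjamini-Hochberg adjustment over all genes and a threshold of 0.05. Log2 CPM used a prior count of 0.5. Depth was 20774667 to 28515434 counts, the biological coefficient of variation 18.9%, and replicate pairs correlated at r = 0.955 to 0.980. Single genes were also compared by a two-sided exact permutation test over all groupings (smallest p 0.00794). Alternatives, computed with limma 3.58.1 and DESeq2 1.42.0 where they used those tools, were other scalings, filters and tools, covariates, and leaving out each library.

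Named genes were the 10 members, *Fgfr2*, the 2 genes with the smallest p in each partner list, and the 3 genes most like *Fzd1*, *Fzd2* and *Fzd8*, which have the highest CPM or smallest p of the family; 1 of these is not reported here. *Lrp5*, *Znrf3*, *Rnf43*, *Wnt5a*, *Axin2*, *Ndp* and the Dishevelled genes were added for their roles. The members and lists were chosen with earlier results of these data known.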

Additional observations from a re-analysis of the deposited data

Results flagged for a closer look

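The libraries of each label were examined for a value far from the other 4, over 33 genes (the named genes) in 66 groups, and 3 values stood apart; chance gives such a value in about 5% of groups. *Fzd3* was at 16.5 CPM in control-labelled replicate 4, against 20.02 to 20.8 CPM in the other control-labelled libraries. *Col8a2*, a gene most like *Fzd2* across libraries, was at 425 CPM in mutant-labelled replicate 2, against 526 to 560 CPM in the other mutant-labelled libraries. *Thbs1*, also among the genes most like *Fzd2*, was at 198 CPM in mutant-labelled replicate 2, against 280 to 314 CPM in the others.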

How the results depend on the processing

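Over 20 other fits, 194 of 200 Frizzled log2 fold changes kept their direction and none reached an adjusted p under 0.05, with a lowest adjusted p of 0.35 under DESeq2; without the adjustment 1 member passed. The sign turned for *Fzd3* (−0.022) and *Fzd9* (−0.022) with an osteoblast score as a covariate, for *Fzd9* without control-labelled replicate 4 or 5 or mutant-labelled replicate 3 (range without single libraries −0.013 to 0.187), and for *Fzd10* without mutant-labelled replicate 1 (range −0.188 to 0.030); the cause was not tested. *Daam1* turned to −0.045 with the osteoblast score. That score also moved *Fzd1* to 0.22, *Fzd7* to 0.19, *Fzd4* to 0.13, *Fzd10* to −0.30 and the family median from 0.09 to 0.16. Library size alone moved *Fzd7* to 0.017, *Fzd4* to 0.024, *Fzd5* to 0.051 and *Fzd1* to 0.072. Of all genes, 3 were called, against 1 with library size alone, 1 with the replicate block, 1 with *Xist* as a covariate, 0 with the osteoblast score, 98 by DESeq2 (56 higher, 42 lower), 1219 without adjustment (598 higher, 621 lower) and 1 to 6 without single libraries, 6 of them without mutant-labelled replicate 2. With the osteoblast score *Fzd5* was the only member at an unadjusted p under 0.05 (4.72% of all genes), and under voom *Fzd2* and *Fzd8* were (7.32%). Partner genes called went from 0 to 6 by DESeq2 and to 17 without adjustment, where 98 and 1219 of all 16267 genes tested were called. They stayed at 0 without single libraries. *Fgfr2* lost its call with library size alone (0.63, adjusted p = 0.152), no filter (0.67, 0.0557), the replicate block (0.68, 0.427), *Xist* (0.66, 0.0625) and the osteoblast score (0.75, 0.994), and in 8 of 10 fits without single libraries (0.63 to 0.75 over all 10). Ranks per length were kept by 7 members with coding length and by 8 in mutant-labelled libraries alone. Same-numbered libraries deviated together with r between −0.21 and 0.14, and 0 of 5 pairs correlated best with their own number, so whether the numbers mark littermates is unknown and the libraries were not paired; with the replicate block *Fzd2* was at 0.23 (p = 0.0512). Library size alone moved the median of all genes by −0.04. Low depth limits *Fzd10*, at 25 to 53 counts.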
